A study of Homo sapiens with 12 samples.

Results

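Histone genes were followed on 12 expression arrays of U937 cells, a human leukemia line with features of monocytes, exposed to the nitric oxide prodrug JS-K. The 4 groups held 3 biological replicates each, namely a DMSO vehicle group and 3 JS-K groups that differ in exposure time (90 min, 4 h and 24 h), all grown in RPMI 1640 with fetal bovine serum. The labels give neither the dose nor the time in DMSO, and the vehicle group is shared by the 3 comparisons with it, so time in culture cannot be told apart from JS-K. Genes were chosen by symbol (the current H1-, H2AC, H2AZ, H2AJ, H2AX, H2BC, H3C, H3-3 and H4C names or their older forms), with no use of their values. This gave 55 of 19775 measured genes, each read by its probe set with the highest mean. Of these, 43 were replication-dependent genes, 8 were variant genes and 4 were antisense or pseudogene symbols that were left out of the counts.

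Histones are the proteins around which DNA is wound. Replication-dependent genes supply the bulk of H1, H2A, H2B, H3 and H4 during S phase, when new DNA must be packed, and their mRNAs end in a stem-loop, bound by SLBP, in place of a poly(A) tail. Variant genes such as H2AZ1 and H3-3A work outside S phase as well and in many cases, though not all, have introns and make polyadenylated mRNA. A handful of replication-dependent genes, H2AC6, H2BC4, H2BC5, H2BC12 and H2BC21 among them, are known to make polyadenylated mRNA too, mostly in cells that have stopped dividing. How well an array sees a histone mRNA therefore depends on how the RNA was primed. Per the labels, the RNA was primed with random hexamers for whole-transcript labelling, while the probe sets are those of a design aimed at transcript 3' ends. Because coding sequences within a family are nearly alike, a probe set listed for 1 histone gene may also read its relatives, which was not tested.

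Among the 43 replication-dependent genes, 40 lie on chromosome 6, between 25726777 and 27893891 (GRCh38.p14), 2 on chromosome 1 and 1 on chromosome 21. The DNA before the start of 3 genes described below is printed here as examples of promoter elements, which do not stand for their classes. RefSeq's promoter table of assembly GRCh38.p14 held 48 of the 51 replication-dependent and variant genes. Each sequence is the 250 bases before the gene's start, 5′ to 3′ on the gene's strand, with matches to the searched motifs in capitals. The first 2 are replication-dependent genes, at chr6:27146859-27147108 (minus strand) and chr6:26123922-26124171 (plus strand), and the third is a variant gene whose probe sets disagree on timing, at chr7:44848088-44848337 (minus strand).
H2BC12: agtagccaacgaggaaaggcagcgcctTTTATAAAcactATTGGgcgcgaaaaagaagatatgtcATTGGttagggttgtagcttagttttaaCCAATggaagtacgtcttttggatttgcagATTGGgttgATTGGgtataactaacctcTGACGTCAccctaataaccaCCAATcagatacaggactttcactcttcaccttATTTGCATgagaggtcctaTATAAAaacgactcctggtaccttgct
H2AC6: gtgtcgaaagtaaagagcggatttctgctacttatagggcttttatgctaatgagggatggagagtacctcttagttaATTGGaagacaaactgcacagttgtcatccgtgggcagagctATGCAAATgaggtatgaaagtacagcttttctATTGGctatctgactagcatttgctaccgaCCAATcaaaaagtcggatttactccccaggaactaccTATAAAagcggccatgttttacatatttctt
H2AZ2: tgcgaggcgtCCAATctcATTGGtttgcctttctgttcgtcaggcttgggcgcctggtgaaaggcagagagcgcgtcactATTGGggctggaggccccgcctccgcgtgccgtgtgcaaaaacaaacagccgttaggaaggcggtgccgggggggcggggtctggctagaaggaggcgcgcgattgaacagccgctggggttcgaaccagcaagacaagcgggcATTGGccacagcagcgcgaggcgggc

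The motifs searched on both strands were the TATA box (TATAAA), the CCAAT box (CCAAT), the octamer ATTTGCAT, which is the known element of H2B promoters bound by OCT1, the AP-1 site TGAGTCA, the cAMP response element TGACGTCA and the E2F site TTTGGCGC. Matches may overlap, as the first 2 TATA matches of H2BC12 do. A TATA box stood in 27 of 40 replication-dependent promoters and 3 of 8 variant promoters, against 11.1% of 27305 promoters of all genes. The CCAAT box was found in 35 of 40 and 7 of 8, against 33.0%. The octamer was found in 16 of 40 replication-dependent promoters, 10 of them among the 13 H2BC promoters, in 0 of 8 variant promoters and in 1.66% of all promoters. H2BC12 holds it 46 to 39 bases before the start, with a TATA box at 27 to 22 bases and a cAMP response element at 99 to 92 bases. H2AC6 holds the octamer on the other strand at 130 to 123 bases and a TATA box at 31 to 26 bases. H2AZ2 had 4 CCAAT matches and none of the other motifs. The same held for the kinds of motif in the replication-dependent gene H2AC25, which had CCAAT matches only. The variant genes H2AZ1 and H2AX each hold a TATA box at 31 to 26 bases, as H2AC6 does. The AP-1 site, found in 4.16% of all promoters, and the E2F site, found in 0.553%, were in none of the 40 replication-dependent and 8 variant promoters. The cAMP response element was found in 7 of 40 replication-dependent promoters and in 1.77% of all promoters.

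Levels are on the log2 scale of GCRMA, where a step of 1 is a 2-fold difference, and a level under 4 is read as low signal. Only 8 of the 43 replication-dependent genes averaged at least 4 over the 12 arrays, and 35 lay under it, as did 10224 of all genes (51.7%). The 8 were H2BC12, H2BC12L, H2BC6, H2BC5, H2BC9, H4C11, H1-2 and H2AC25, so that 5 of 14 H2B genes, 1 of 8 H2A genes, 1 of 8 H4 genes, 1 of 6 H1 genes and 0 of 7 H3 genes were clearly read. Of these 8, 5 were read by probe sets that the design marks as matching several transcripts (names ending in _x_at). Of the 8 variant genes, 6 averaged at least 4, and H1-7 and H1-8, linker histones of the germ line, lay under it. Vehicle means ran from 1.96 ± 0.01 for H2BC13 to 13.92 ± 0.06 for H2AZ1 (SD, n = 3), which does not order the genes, since probe sets differ in response. H3-3B had no probe set of its own and is described only through probe sets it shares with H3-3A.

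**Figure D1:**
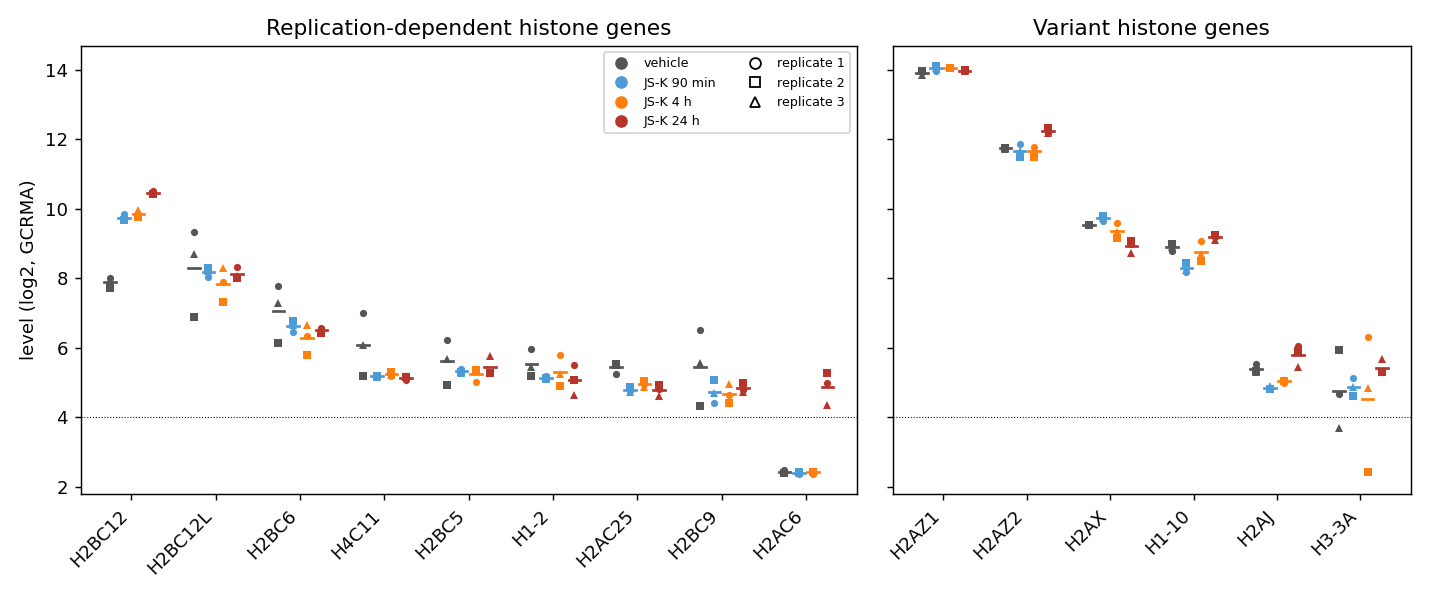
Level (log2, GCRMA) on each of the 12 arrays for the 8 replication-dependent genes with a mean of at least 4 and H2AC6 (left) and for the 6 variant genes with a mean of at least 4 (right). Colors are groups, marker shapes are replicate numbers, short bars are group means of 3 arrays and the dotted line marks 4. H2BC12 lies above its vehicle arrays at all 3 times, H2AC6 leaves the low range at 24 h only, and H2BC12L, H2BC6, H4C11 and H2BC9 spread widely among the vehicle arrays.

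The question of the comparisons with vehicle is which histone transcripts changed and when. H2BC12, a gene for histone H2B at 27138293 to 27146858 on chromosome 6, minus strand (GRCh38.p14), was called higher at all 3 times. Its level was 8.0, 7.73 and 7.95 on the vehicle arrays, 9.85, 9.68 and 9.72 at 90 min, 9.85, 9.77 and 9.97 at 4 h, and 10.52, 10.44 and 10.43 at 24 h. All 9 JS-K arrays lay above the 3 vehicle arrays, and the 24 h arrays lay above the other 6. H2BC12 rose by 1.86 ± 0.09 at 90 min (log2 difference ± SE of the limma fit, 3.62-fold, adjusted p = 6.4e-08), by 1.97 ± 0.09 at 4 h (3.91-fold, adjusted p = 1.7e-08) and by 2.57 ± 0.09 at 24 h (5.92-fold, adjusted p = 5.3e-10). The step from 90 min to 4 h was 0.11 ± 0.09 and did not pass the test (adjusted p = 0.32), while that from 4 h to 24 h was 0.60 ± 0.09 (adjusted p = 0.00017). Poly-A spikes (control RNAs added before labelling) stood at 3.04 in vehicle and 3.08 at 90 min. Both lie under 4, so they cannot show whether these groups were prepared alike. Control probe sets for 18S ribosomal RNA differed between these groups, at 9.78 ± 1.69 in vehicle and 7.06 ± 0.91 at 90 min (SD, n = 3). Their part in the rise was not tested. Hybridization spikes stood at 9.96 in vehicle, 10.03 at 90 min, 10.21 at 4 h and 11.70 at 24 h. At 4 h and 24 h the poly-A spikes stood at 7.02 and 8.47, so that sample preparation and time cannot be told apart there.

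H2AC6, a gene for histone H2A at 26124172 to 26124690 on chromosome 6, plus strand, changed late. Its level was 2.48, 2.39 and 2.41 in vehicle, 2.37, 2.42 and 2.40 at 90 min and 2.38, 2.44 and 2.42 at 4 h, all in the low range. At 24 h it was 4.99, 5.28 and 4.34, so the 24 h arrays stood apart from the other 9. The difference from vehicle was at least 2.44 ± 0.17 (limma, adjusted p = 1.6e-07), at least 5.44-fold, as a lower bound because the vehicle level is low signal. Between 4 h and 24 h the difference was at least 2.45 ± 0.17 (adjusted p = 4.3e-07). Both genes are among those known to give polyadenylated mRNA. Of the other 3 named as such, H2BC5 was at 5.62 ± 0.64 in vehicle and 5.44 ± 0.29 at 24 h (SD, n = 3) and did not pass the test (adjusted p = 0.57), H2BC21 stayed between 2.12 and 2.21 on all arrays, and H2BC4 had both ends under 4.

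H2BC4 is the head-to-head neighbour of H2AC6, with 246 bases between the starts, so most of the H2AC6 sequence printed above is also upstream of H2BC4. It stood at 2.35, 2.40 and 2.39 in vehicle and at 2.56, 2.54 and 3.22 at 24 h. The fitted difference of 0.39 ± 0.13 had an adjusted p of 0.038 in limma, but it was not read as a change of size because both ends are low signal, and leaving out any 1 of the 3 vehicle arrays brought the adjusted p to between 0.074 and 0.097. Within 1000 bases RefSeq lists 13 such head-to-head histone pairs, of which 5 had both genes measured. In the other 4 pairs neither gene passed the test at 24 h. Of the 16 replication-dependent promoters with the octamer, 4 belonged to genes called higher at 24 h in limma and 0 to genes called lower, and of the 24 without it 1 and 3 did, beside 17.8% and 18.9% of all genes. Of the 5 called higher, H2BC3, H2BC4 and H3C1 had both ends under 4, which leaves H2BC12 and H2AC6, both with the octamer, and nothing is read from these counts.

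Few other replication-dependent genes passed the test, and most that did had levels under 4. At 90 min 1 of 43 was called higher and 1 lower (limma, adjusted p under 0.05), beside 4.03% of all 19775 genes called higher and 5.62% called lower. At 4 h 7 were called higher and 2 lower, beside 23.9% and 16.6% of all genes. At 24 h 5 were called higher and 3 lower, beside 17.8% and 18.9%. After quantile normalization of the 12 arrays the counts were 1 higher and 0 lower at 4 h and 3 higher and 4 lower at 24 h. The share of all genes called in that fit was not computed, so these counts are not read as changes. The median difference over the 43 was 0.00 at 90 min, 0.04 at 4 h and 0.04 at 24 h, and over all genes it was 0.01, 0.06 and 0.06. Over the 8 genes with a mean of at least 4 it was −0.42, −0.47 and −0.51. Over the 9551 genes of that level it was −0.03, −0.14 and −0.09. The vehicle arrays differed widely in most of these 8 genes, as described below. Except for H2BC12, the 7 calls at 4 h were H4C8, H2AC8, H3C1, H4C13, H2BC13 and H4C4, with differences of 0.04 to 0.21 and both ends under 4. Replicate 2 of the 4 h group had the highest array median of the series, 3.10 against 2.84 to 2.99 on the other 11 arrays, and without it 19 replication-dependent genes were called higher at 24 h in place of 5, beside 52% of all genes. Counts of calls in the low range were therefore not read as changes. Among the 8 genes with a mean of at least 4, 1 was higher and 1 lower at 90 min, beside 8.05% and 10.5% of the 9551 genes of that level. At 4 h 1 was higher and 1 lower, beside 14.7% and 32.4%, and at 24 h 1 was higher and 2 lower, beside 25.9% and 37.1%. Between the JS-K times, 0 replication-dependent genes were called from 90 min to 4 h in limma, beside 3.33% of all genes called higher and 7.25% lower, and at an unadjusted p under 0.05 9 were higher and 0 lower, beside 22.1% and 13.6% of all genes. From 4 h to 24 h 3 were called higher and 0 lower, beside 12.8% and 10.7% of all genes, namely H2BC12, H2AC6 and H2BC3. The same 3 were called higher from 90 min to 24 h, beside 14.6% and 15.7% of all genes called higher and lower.

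**Figure D2:**
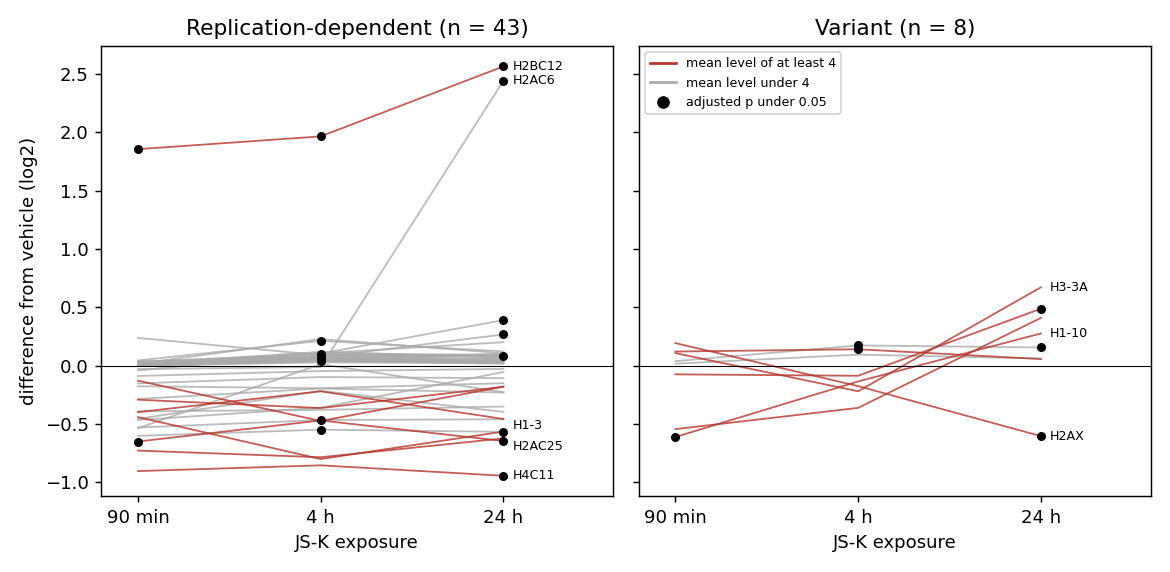
Difference from vehicle (log2) at 90 min, 4 h and 24 h of JS-K for the 43 replication-dependent genes (left) and the 8 variant genes (right), 1 line per gene. Red lines are genes with a mean level of at least 4, grey lines those under it, and black points mark an adjusted p under 0.05. H2BC12 is raised from 90 min on and H2AC6 joins it at 24 h, while most grey lines stay close to 0.

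Lower levels were called for 2 replication-dependent genes with a mean of at least 4. H2AC25, a gene for H2A outside the chromosome 6 cluster, on chromosome 1 at 228457364 to 228457873 (minus strand), stood at 5.26, 5.54 and 5.51 in vehicle, 4.75, 4.89 and 4.73 at 90 min, 4.96, 5.06 and 4.89 at 4 h and 4.82, 4.93 and 4.62 at 24 h. No JS-K array reached the vehicle range. H2AC25 fell by 0.65 ± 0.14 at 90 min (limma, adjusted p = 0.011), by 0.47 ± 0.14 at 4 h (adjusted p = 0.030) and by 0.65 ± 0.14 at 24 h (adjusted p = 0.0029). Without vehicle replicate 2 or 3 the calls at 90 min and 4 h were lost (adjusted p of 0.051 to 0.096), and the call at 24 h was not. H4C11, a gene for histone H4, was at 7.0, 5.18 and 6.08 in vehicle and at 5.07, 5.16 and 5.20 at 24 h. Here the groups overlapped by 1 vehicle array, and the difference of −0.94 ± 0.32 (adjusted p = 0.039) was lost without vehicle replicate 1 (−0.49, adjusted p = 0.13) or without replicate 3 (adjusted p = 0.087).

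H1-2, a main linker histone, was at 5.54 ± 0.41 in vehicle and 5.08 ± 0.43 at 24 h (SD, n = 3), and the difference did not pass the test (adjusted p = 0.17). H1-4, another linker histone, was under 4 on all arrays. H1-3 was called lower at 4 h and 24 h with both ends under 4, which was not read.

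The vehicle arrays themselves differed in replication-dependent genes. Of the 8 genes with a mean of at least 4, 7 had vehicle replicate 1 highest and replicate 2 lowest, and H2AC25 did not. The share of all genes with this order was not counted. In 5 of the 8 (62.5%) the 3 vehicle arrays spanned more than 1 on the log2 scale, against 80 of the 9551 genes of that level (0.838%). H2BC9, an H2B gene, stood at 6.50, 4.32 and 5.55, and H2BC12L, an H2B copy on chromosome 21, at 9.34, 6.89 and 8.70. H2BC6, also an H2B gene, stood at 7.78, 6.14 and 7.28. Over the 8 genes the median was 6.75, 5.36 and 5.88 on the vehicle arrays and between 5.22 and 5.49 on the 9 JS-K arrays. Vehicle replicate 2 thus lay among the JS-K arrays and replicates 1 and 3 above all of them.

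The control probe sets for 18S ribosomal RNA, which also has no poly(A) tail, were at 11.69, 8.45 and 9.21 on the same 3 vehicle arrays, again highest in replicate 1 and lowest in replicate 2. On the JS-K arrays they were at 6.01, 7.62 and 7.54 at 90 min, 7.57, 6.99 and 9.92 at 4 h and 11.42, 9.52 and 10.60 at 24 h. Of the 8 genes, 3 ranked the 3 arrays of their group in the same order as 18S at 90 min, 4 at 4 h and 2 at 24 h, against 7 in vehicle, and H2BC12L and H2BC6 did so in all 4 groups. How many of all genes follow the order of 18S was not counted. As 5 of the 8 genes are read by _x_at probe sets, which may read the same transcripts, the 8 are not separate observations. The part of 18S in the histone spread was not tested. Without vehicle replicate 2, 6 replication-dependent genes were called lower at 90 min, 8 at 4 h and 7 at 24 h, in place of 1, 2 and 3, beside 4.18%, 13% and 17.6% of all genes in the same fits. Without replicate 1 the counts were 1, 1 and 1, beside 4.46%, 12.7% and 17.5% of all genes. Without replicate 3 they were 0, 0 and 1, beside 3.62%, 11.6% and 16.8%. The number of replication-dependent genes called lower thus depended on which vehicle arrays entered the fit.

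**Figure D3:**
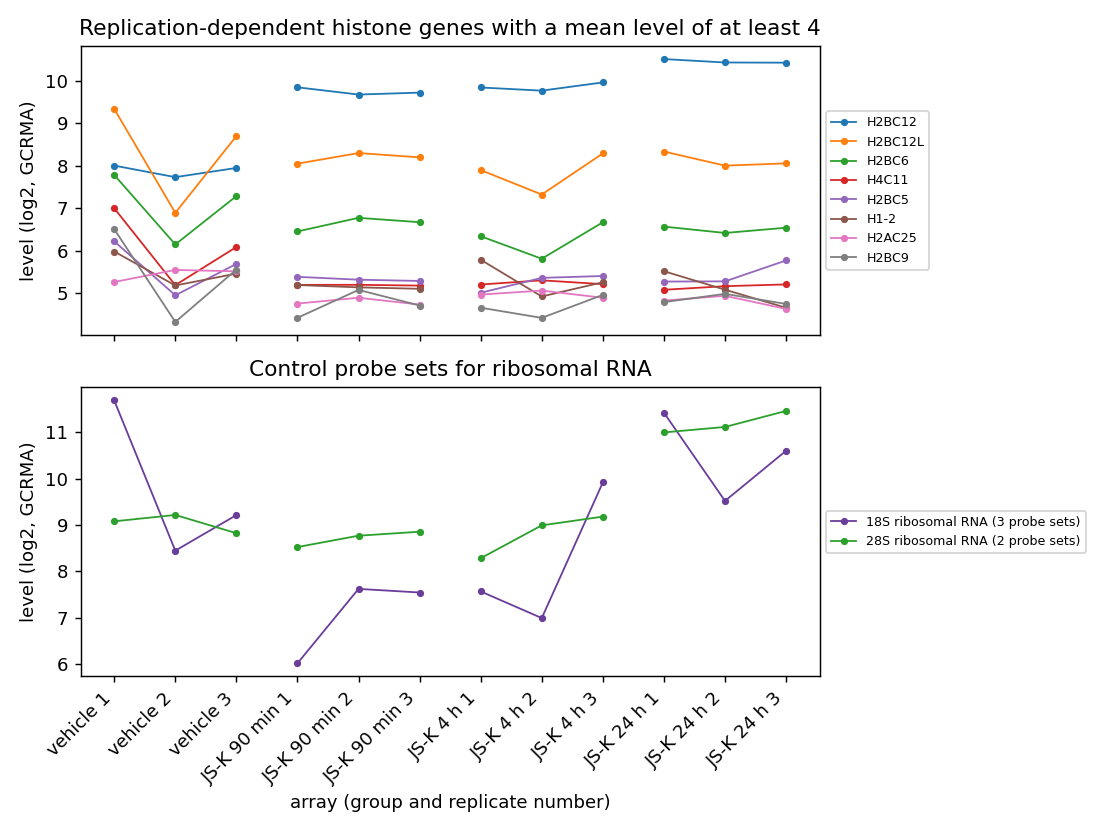
Level (log2, GCRMA) on each array, with lines joining the 3 arrays of a group, for the 8 replication-dependent genes with a mean of at least 4 (top) and for control probe sets of 18S and of the 5' end and middle of 28S ribosomal RNA (bottom). In vehicle, 7 of the 8 genes and 18S ribosomal RNA are highest in replicate 1 and lowest in replicate 2, and H2BC12 has a vehicle range of only 0.27.

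Probe sets listed for several replication-dependent genes, which the choice by single symbol leaves out, were described too. Those with the same list of genes differed in level and in direction. The brightest H4 probe set, listed for 14 H4 genes, was at 11.28, 11.38 and 11.57 in vehicle, 11.31, 11.39 and 11.40 at 90 min, 11.52, 11.41 and 11.61 at 4 h and 10.87, 10.78 and 10.86 at 24 h. The 24 h arrays lay below the other 9, and the difference from vehicle was −0.57 ± 0.08 (limma over all probe sets, adjusted p = 0.00012). A second probe set of the same 14 genes, 208580_x_at, at 6.67 in vehicle, was 0.56 lower at 24 h (difference −0.56 ± 0.15, adjusted p = 0.017). It was called lower at 4 h already (−0.62 ± 0.15, adjusted p = 0.017) and stood at −0.57 ± 0.15 at 90 min (adjusted p = 0.055), where the first probe set gave 0.10 at 4 h and −0.04 at 90 min, so these 2 disagree on timing. Others of the same 14 genes were under 4, at 2.44 (207046_at), 2.69 (208181_at) and 2.41 (214516_at) in vehicle. Of these, 208181_at was called higher at 24 h (0.30 ± 0.07, adjusted p = 0.0047), which was not read. The probe sets of several H3C genes were under 4 as well. The probe set of the H2A genes H2AC18 and H2AC19, 214290_s_at, stood at 8.62, 8.36 and 8.38 in vehicle and 8.0, 8.06 and 7.88 at 24 h. Its differences were −0.51 ± 0.13 at 4 h (adjusted p = 0.018) and −0.47 ± 0.13 at 24 h (adjusted p = 0.016), and their second probe set 218280_x_at gave −0.81 ± 0.21 and −0.70 ± 0.21. Of the probe sets listed for 5 H2B genes, 208490_x_at was at 6.13 ± 1.27 in vehicle (SD, n = 3). It gave −1.29 ± 0.48 at 24 h (adjusted p = 0.066), while 208523_x_at, at 4.94 ± 0.98 in vehicle, gave −0.03 ± 0.35. Of 14 such histone probe sets with a mean of at least 4, including those of H3.3, 0 were called at 90 min in limma, where 5.74% and 7.05% of all 20916 probe sets of that level were called higher and lower. At an unadjusted p under 0.05, 1 was higher and 3 lower at 90 min, beside 13.4% and 17.4%. At 4 h 1 was called higher and 4 lower, beside 12.3% and 25.3%, and at 24 h 4 higher and 4 lower, beside 22.2% and 33.7%.

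Of the 8 variant genes, 0 were called higher and 1 lower at 90 min in limma, beside 4.03% and 5.62% of all genes. At 4 h 2 were called higher and 0 lower, beside 23.9% and 16.6%, and at 24 h 2 higher and 1 lower, beside 17.8% and 18.9%. At an unadjusted p under 0.05, 1 was higher at 90 min and 1 lower at 4 h, beside 7.64% and 19.6% of all genes. After quantile normalization 4 were higher and 1 lower at 24 h, with the share of all genes in that fit not computed. H1-8 was 1 of the 2 called higher at both later times and had both ends under 4. H2AX, the H2A variant that is phosphorylated around DNA breaks, was at 9.52, 9.54 and 9.53 in vehicle, 9.65, 9.79 and 9.74 at 90 min, 9.58, 9.15 and 9.35 at 4 h and 8.98, 9.07 and 8.74 at 24 h. The 24 h arrays lay below the other 9. H2AX fell by 0.60 ± 0.11 at 24 h against vehicle (limma, 1.52-fold lower, adjusted p = 0.00067) and by 0.80 ± 0.11 against 90 min (adjusted p = 7.9e-05). Its second probe set, 212525_s_at at 6.46 in vehicle, gave −0.35 ± 0.25 at 24 h and did not pass the test, and the mean over its 4 probe sets gave −0.15 (adjusted p = 0.22).

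H1-10, a linker histone variant at 129314771 to 129316286 on chromosome 3 (minus strand), moved down and then up. It was at 8.80, 8.99 and 8.92 in vehicle, 8.19, 8.44 and 8.24 at 90 min, 9.09, 8.51 and 8.71 at 4 h and 9.19, 9.26 and 9.09 at 24 h. The 90 min arrays lay below the other 9. The fall at 90 min was −0.61 ± 0.13 (limma, adjusted p = 0.010), and from 90 min to 24 h H1-10 rose by 0.89 ± 0.13 (adjusted p = 0.00015), ending 0.28 ± 0.13 above vehicle, which did not pass the test (adjusted p = 0.10).

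H2AZ1 and H2AZ2 encode the H2A.Z proteins, which sit beside transcription starts. H2AZ1 stayed between 13.86 and 14.10 on all 12 arrays. Its difference of 0.14 ± 0.04 at 4 h passed the test (limma, adjusted p = 0.036), while its other probe set, 200853_at, gave 0.04 ± 0.03 at 4 h and −0.15 ± 0.03 at 24 h (adjusted p = 0.0033 over all probe sets), so the direction depends on the probe set. H2AZ2 was read by 4 probe sets, and they disagreed on timing. The brightest, 202487_s_at, was at 11.74, 11.76 and 11.73 in vehicle, 11.86, 11.48 and 11.67 at 90 min, 11.77, 11.50 and 11.70 at 4 h and 12.18, 12.33 and 12.19 at 24 h. By it H2AZ2 rose at 24 h only, by 0.49 ± 0.09 (adjusted p = 0.00094).

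A second H2AZ2 probe set, 212205_at, had already risen at 90 min, by 1.00 ± 0.08 (limma over all probe sets, adjusted p = 2.8e-05), and was 1.05 ± 0.08 above vehicle at 4 h and 0.86 ± 0.08 above it at 24 h. The probe set 212206_s_at gave 1.18 ± 0.10, 1.05 ± 0.10 and 0.82 ± 0.10 in the same order, with all 3 passing the test. The fourth, 227085_at, gave 0.41 ± 0.11 (adjusted p = 0.055), 0.35 ± 0.11 (adjusted p = 0.047) and 0.27 ± 0.11 (adjusted p = 0.086). All 4 were thus above vehicle at 24 h, 3 of them past the test, and 2 of the 4 passed it at 90 min. Which transcript ends these probe sets read was not tested.

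**Figure D4:**
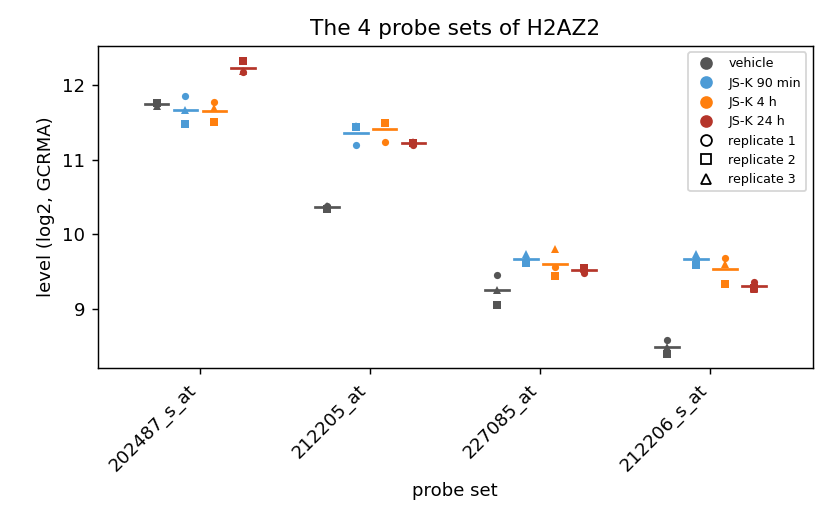
Level (log2, GCRMA) on each array of the 4 probe sets listed for H2AZ2, with colors for groups, shapes for replicate numbers and bars for means of 3 arrays. The probe set 202487_s_at is near its vehicle level until 4 h and higher at 24 h, while 212205_at and 212206_s_at are about 1 higher from 90 min on.

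H2AJ, an H2A variant with a polyadenylated mRNA, was at 5.55, 5.33 and 5.31 in vehicle, 4.83, 4.81 and 4.91 at 90 min, 4.98, 5.04 and 5.07 at 4 h and 6.06, 5.91 and 5.45 at 24 h. No comparison with vehicle passed the test (adjusted p of 0.060, 0.080 and 0.067). Between 90 min and 24 h H2AJ rose by 0.95 ± 0.16 (limma, adjusted p = 0.00051) and between 4 h and 24 h by 0.77 ± 0.16 (adjusted p = 0.0035). The probe set 228213_at, under 4, gave −0.04 for the latter step. Another H2AJ probe set above 4, 224301_x_at, moved less. Its means were 4.89 in vehicle, 4.79 at 90 min, 4.77 at 4 h and 5.04 at 24 h, so the size of the rise depends on the probe set. H3-3A encodes H3.3, the H3 variant placed in active genes. Its own probe set ranged from 2.44 to 6.32 within the 4 h group alone, and no comparison passed the test.

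Probe sets shared by H3-3A and H3-3B, listed with a pseudogene or a microRNA, were far brighter. The probe set 211999_at was at 11.97, 11.96 and 11.92 in vehicle, 12.19, 12.05 and 12.15 at 90 min, 12.17, 11.99 and 12.03 at 4 h and 12.48, 12.54 and 12.36 at 24 h. It rose by 0.51 ± 0.06 at 24 h (limma over all probe sets, adjusted p = 4.4e-05), and 209069_s_at rose by 0.47 ± 0.06. By contrast 208755_x_at was lower at 4 h (−0.25 ± 0.08, adjusted p = 0.045), so the direction at 4 h differs between probe sets. At 24 h 200080_s_at and 211997_x_at rose by 0.17 and 0.28, and 211998_at gave 0.48 ± 0.17 (adjusted p = 0.063). Differences of −0.10 ± 0.08 (208755_x_at), −0.02 ± 0.09 (211940_x_at) and −0.06 ± 0.09 (213828_x_at) did not pass the test. The rise at 24 h was thus not shared by all of these probe sets.

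CENPA and the macroH2A genes lie outside the choice by symbol. CENPA, the H3 variant of centromeres, rose by 0.44 ± 0.12 at 4 h and 1.32 ± 0.12 at 24 h (limma, adjusted p = 0.020 and 2.0e-06) from 8.82 in vehicle. HJURP, the chaperone that places CENPA, rose with it, by 0.32 ± 0.08 at 90 min, 0.49 ± 0.08 at 4 h and 1.20 ± 0.08 at 24 h. MACROH2A1 was at 12.54 in vehicle and did not pass the test at any time.

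The genes that transcribe, finish and place histones were described from lists chosen by function, and nearly all of them averaged at least 4. Of all genes of that level, 8.05% were called higher and 10.5% lower at 90 min, 14.7% and 32.4% at 4 h, and 25.9% and 37.1% at 24 h, with a median difference of −0.09 at 24 h. In each of the 4 lists most were lower at 24 h. Of 26 measured genes of histone pre-mRNA processing and decay, 0 were higher and 5 lower (19.2%) at 90 min in limma, 0 and 17 (65.4%) at 4 h, and 4 and 18 (69.2%) at 24 h, with a median difference of −0.62 at 24 h. At an unadjusted p under 0.05, 1 was higher at 90 min and 0 at 4 h. SLBP, which binds the stem-loop of replication-dependent mRNAs, fell by 0.30 ± 0.06 at 4 h and by 1.15 ± 0.06 at 24 h (limma, adjusted p = 0.0024 and 1.1e-08) from 12.28 in vehicle. ZNF473 and LSM11, parts of the U7 snRNP machinery that cuts the 3' end, fell by 1.70 ± 0.19 and 1.13 ± 0.18 at 24 h, and CASP8AP2, which organises that machinery, by 1.34 ± 0.10, although another probe set of CASP8AP2 gave −0.0015 at 24 h (adjusted p = 0.99). LSM10, the partner of LSM11, was lower at 4 h (−0.35 ± 0.12) and at 24 h differed by 0.19 ± 0.12, which did not pass the test. CSTF3 and CSTF2T, cleavage factors shared with polyadenylated mRNAs, fell by 1.69 ± 0.09 and 1.63 ± 0.32. ERI1, a nuclease that trims histone mRNA ends, was lower at 24 h (−0.27 ± 0.09, adjusted p = 0.035), a direction that turned when its probe sets were averaged (0.01).

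Of 16 genes of histone gene transcription, 14 with a mean of at least 4, 1 was higher and 0 lower at 90 min in limma (1 lower at an unadjusted p under 0.05), 3 and 6 (37.5%) at 4 h and 1 and 10 (62.5%) at 24 h, with a median of −0.68 at 24 h. The share lower at 4 h lay close to the 32.4% of all genes of that level. NPAT, the cyclin E substrate that activates histone promoters, fell by 0.47 ± 0.11 at 4 h and by 1.39 ± 0.11 at 24 h (limma, adjusted p = 0.0090 and 7.6e-07). Its kinase partner genes moved apart early. CCNE2, cyclin E2, rose by 0.48 ± 0.11 at 90 min and 1.15 ± 0.11 at 4 h and then lay 1.15 below vehicle at 24 h (difference −1.15 ± 0.11), while CCNE1, cyclin E1, was not called at the first 2 times and fell by 3.19 ± 0.35 at 24 h. CDC25A, the phosphatase that activates CDK2, fell by 0.64 ± 0.19 at 4 h and by 1.87 ± 0.19 at 24 h. Of 21 genes of DNA synthesis, 2 were higher and 1 lower (4.76%) at 90 min, 4 and 13 (61.9%) at 4 h and 0 and 18 (85.7%) at 24 h in limma, with a median of −1.18 at 24 h. At an unadjusted p under 0.05, 1 was higher at 24 h. With the replicate block 2 were lower at 90 min. CDC6, a loader of the replicative helicase, fell by 3.54 at 24 h.

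Of 30 histone chaperones and deposition factors, 3 were higher and 1 lower (3.33%) at 90 min, 3 and 8 (26.7%) at 4 h, and 5 and 18 (60%) at 24 h, with a median of −0.35 at 24 h. The share lower at 4 h was below the 32.4% of all genes of that level. IPO4, an importin that carries H3 and H4, rose by 0.64 ± 0.13 at 90 min (limma, adjusted p = 0.0088) and fell by 3.48 ± 0.13 at 24 h. CHAF1B, a subunit of the CAF-1 complex that deposits H3 and H4 behind the fork, fell by 2.20 ± 0.21, and NASP, a storage chaperone, by 1.35 ± 0.05. CHAF1A fell by 2.00 ± 0.12 and HIRA, the depositor of H3.3, by 1.26 ± 0.23, but another probe set of each gave 0.05 and 0.24 at 24 h, so the direction depends on the probe set. ASF1A was lower at 24 h (−0.73 ± 0.08) and its relative ASF1B higher (0.32 ± 0.12, adjusted p = 0.046). DAXX was lower at 4 h only (−0.50 ± 0.15), and ATRX and ANP32E did not pass the test at any of the 3 times.

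**Figure D5:**
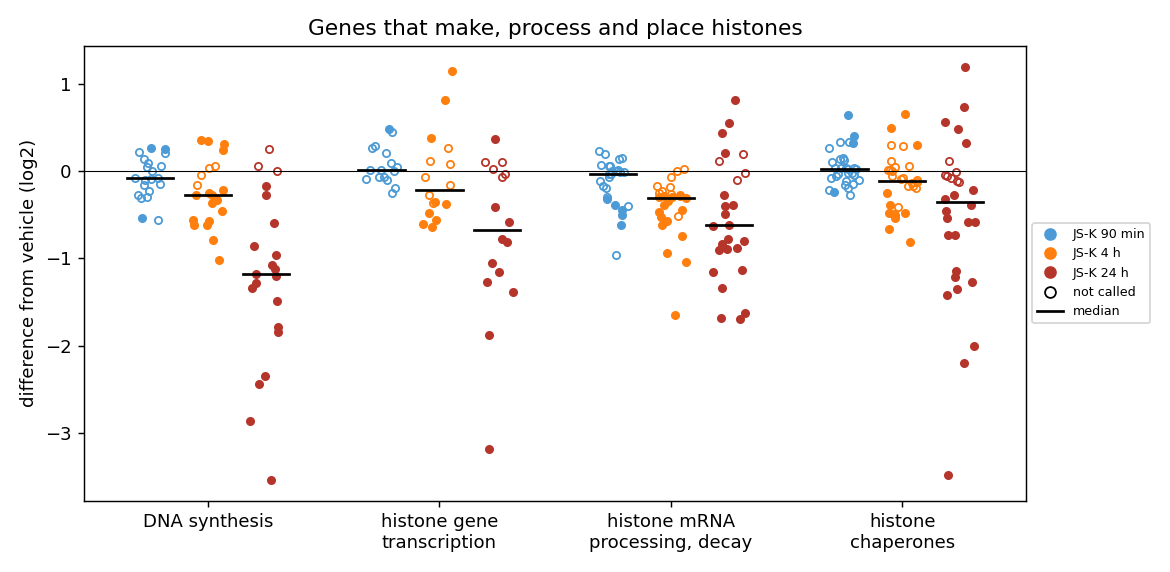
Difference from vehicle (log2) for the measured genes of DNA synthesis (21), histone gene transcription (16), histone mRNA processing and decay (26) and histone chaperones (30) at 90 min, 4 h and 24 h. Filled points have an adjusted p under 0.05, open points do not, and bars are list medians, which at 24 h lie at −1.18, −0.68, −0.62 and −0.35.

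The labelled cell type was checked against marker genes. PTPRC (10.22 in vehicle), LYZ (13.64), CD4 (8.77) and ITGAM (7.56) were well above 4, and SPI1 (5.75) and CSF1R (4.19) lay above it, while CD14 and MPO were under 4. Of these 8 measured markers 5 rose at 24 h, with a median difference over the 8 of 1.05, and CSF1R, the M-CSF receptor, rose the most, by 2.80. Of 8 measured markers of other cell types, PECAM1, which monocytes also make, and COL1A1 lay above 4, and those of T cells, B cells, red cells and epithelium did not. PECAM1 was the 1 marker of these called higher at 24 h, beside the same 17.8% of all genes. On all arrays 61.4% to 62.1% of probe sets were under 4. Controls for the 5' end and middle of 28S ribosomal RNA (2 probe sets) stood at 9.04 ± 0.20 (SD, n = 3) on the vehicle arrays and at 11.19 ± 0.24 by 24 h, and the 1 control for its 3' end stayed at 1.68 and 1.70. The former moved with the 24 h rises of H2BC12 and H2AC6, and their part in those rises was not tested. The 2 other measured RNAs without a poly(A) tail, SCARNA2 (2.08 in vehicle and 3.98 at 24 h) and RPPH1 (2.15 and 2.20), lay under 4 and were not read.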

How the data were processed

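Gene expression was measured on 12 arrays of U937 cells, 3 biological replicates in each of 4 groups. The authors deposited 1 log2 value per probe set and array, made by GCRMA, which corrects background by probe sequence, equalizes quantiles and summarizes probes. The program was Affymetrix Expression Console, per the submitters' processing notes, with no version given. No further normalization was applied. GCRMA compresses low values, so differences under a level of 4 are not read. The platform annotation names 1 gene for 41097 of 54675 probe sets, several genes for 1801 and no gene for 11777. Through RefSeq's table of GRCh38.p14 41043 of the 41097 were matched to a current gene. Of the 55 genes, 11 had several probe sets, 73 in all, and the one with the highest mean stood for the gene. Another 28 probe sets listed several histone genes.

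Groups were compared in R 4.3.3 by limma 3.58.1, in 1 linear model of the 12 arrays with moderated variances that follow the mean level (8 residual and 3.97 prior degrees of freedom), with Benjamini-Hochberg adjustment over 19775 genes, or over 54675 probe sets where stated, and a call at an adjusted p under 0.05. On simulated data of 19775 genes for 24 h against vehicle, the fit recovered 83 of 100 simulated 2-fold changes and all 100 of the 4-fold ones, and 6 of 189 calls fell on genes left as they were. These changes were placed only in genes with a mean of at least 4, with independent normal noise, so recovery at lower levels was not tested. Far fewer genes were changed than were called in the data. The labels call the replicates biological without naming separate cultures, so p-values reflect variation among these arrays, whose number limits the precision.

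The genes, lists, motifs and alternatives were chosen with earlier results of these data known. Named in each comparison were up to 8 called genes with the largest rise and 8 with the largest fall, 13 histone genes and 17 partners fixed by function, the highest and lowest vehicle means, genes whose probe sets disagree, and up to 4 called genes per list. H2BC5, H2BC6 and H2BC9 and the probe sets of several genes were described after their values were seen. Alternatives were the spread without trend, filters on level, other choices of probe set, quantile or median scaling, array weights, a replicate block, a fold of 1.5 (treat), the 6 arrays of a comparison alone and each array left out in turn. A fit over all probe sets was added after seeing the data. Same-numbered arrays deviated together (r of 0.218, 0.229 and 0.128) in vehicle and 90 min, which the labels do not explain, and not in all 3 pairs of any other 2 groups. Figures were drawn with matplotlib.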

Additional observations from a re-analysis of the deposited data

Results flagged for a closer look

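Differences between JS-K times, tested as contrasts of the same limma fit, show where effects against vehicle were not the same at 2 times. From 90 min to 4 h H1-10 was higher by 0.48, a call lost with the replicate block (adjusted p = 0.055) and in 8 other alternatives. From 4 h to 24 h H2AC6 was higher by 2.45, H2BC12 by 0.60, H2AJ by 0.77, H2AZ2 by 0.57, H1-10 by 0.41 and H2BC3 by 0.20, the last with both ends under 4, and H2AX fell by 0.43. The H1-10 call from 4 h to 24 h was lost with the block too (adjusted p = 0.058) and in 9 other alternatives. From 90 min to 24 h H2AC6 was higher by 2.47, H2BC12 by 0.71, H2AJ by 0.95, H1-10 by 0.89, H2AZ2 by 0.56 and H2BC3 by 0.25, and H2AX fell by 0.80. The H2AZ2 steps are those of its brightest probe set, and its other probe sets were lower at 24 h than at both earlier times. Means of 212205_at were 11.36 at 90 min, 11.41 at 4 h and 11.22 at 24 h. In the same order 212206_s_at gave 9.67, 9.54 and 9.31, and 227085_at gave 9.67, 9.60 and 9.53. The other H2AJ probe set above 4, 224301_x_at, rose less, with 4.79, 4.77 and 5.04.

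Data outside the genes chosen by single symbol also carried signal above vehicle. Some probe sets shared by H3-3A and H3-3B were higher, by 0.19 at 4 h and 0.17 at 24 h (200080_s_at), and at 24 h by 0.47 (209069_s_at), 0.28 (211997_x_at) and 0.51 (211999_at). Others were not called at 24 h, with −0.10 (208755_x_at), −0.02 (211940_x_at), −0.06 (213828_x_at) and 0.48 (211998_at). The 2 control probe sets for the 5' end and middle of 28S ribosomal RNA averaged 11.19 at 24 h against 9.04 in vehicle, while that for the 3' end was at 1.70 and 1.68, and those of the poly-A spikes 8.47 against 3.04.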

How the results depend on the processing

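The number of arrays (3 in a group) limits the precision, and levels under 4 on the log2 scale limit what can be read of 35 of the 43 replication-dependent genes. Poly-A spikes stood at 3.04 in vehicle and 3.08 at 90 min, against 7.02 at 4 h and 8.47 at 24 h. For every gene and list, sample preparation and time therefore cannot be told apart when 4 h or 24 h is compared with vehicle or 90 min. Of 368 recomputed counts of histone genes called, 249 stayed within 1.5 times the count reported and 119 moved. Of 1849 recomputed differences of single called genes, 1477 kept direction and call, 360 lost the call and 12 turned. H2BC12 against vehicle at all 3 times and H2AC6 at 24 h kept their calls under every alternative run. Except where the alternative's own construction shows it (fewer genes, fewer arrays, a larger fold asked for), the cause was not tested.

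Directions turned mostly with the choice of probe set. With a plain _at probe set CASP8AP2 at 4 h gave 0.13, CHAF1A 0.071 at 4 h, 0.053 at 24 h and 0.054 from 90 min to 4 h, and HIRA 0.22, 0.24 and 0.19 in the same order. From 4 h to 24 h it gave −0.038 for H2AJ, −0.19 for H2AZ2 and 0.25 for CSTF3. With probe sets averaged ERI1 gave 0.012 at 24 h, and with quantile normalization H4C4 gave −0.0039 at 4 h. The median of replication-dependent genes at 90 min, 4 h and 24 h against vehicle was −0.42, −0.47 and −0.51 over genes with a mean of at least 4, with 0.17 from 4 h to 24 h, and −0.28, −0.20 and −0.18 without the dimmest genes (the third with the lowest means). Both filters change which genes enter the median. With quantile normalization it was −0.040 at 4 h.

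Counts are given as replication-dependent genes first and variant genes second, with the times in the order 90 min, 4 h and 24 h against vehicle, then 90 min to 4 h and 4 h to 24 h, for those that moved by over 1.5 times. Except for some fits with 1 array left out, the share of all genes called was not computed for the alternatives. The counts therefore show how far calls moved and are not read as results about histone genes. With array weights, whose estimate stopped before its set tolerance, the replication-dependent counts were 6, 22, 24, 8 and 5 higher and, in order but without 90 min to 4 h, 8, 11, 5 and 1 lower. The variant counts were 2 higher and 2 lower at 90 min, 5 and 1 at 4 h, 7 higher at 24 h, 4 higher from 90 min to 4 h and 2 lower from 4 h to 24 h. With a fold of 1.5 asked for by treat, replication-dependent counts were 1 higher at 4 h, 2 at 24 h and 1 from 4 h to 24 h, with 0 lower at the 3 times, and every variant count fell to 0. Without the trend of the spread, replication-dependent counts were 1 higher and 1 lower at 4 h and 3 and 1 at 24 h, and variant counts 2 lower at 90 min, 1 higher at 4 h and 0 higher from 90 min to 4 h.

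Without the dimmest genes, replication-dependent counts were 1 higher and 1 lower at 4 h and 3 higher at 24 h, and variant counts 2 lower at 90 min, 1 higher at 4 h and 1 lower from 90 min to 4 h. Over genes with a mean of at least 4, replication-dependent counts were 2 lower at 90 min, 1 higher at 4 h, 1 higher at 24 h and 1 higher from 4 h to 24 h, and variant counts were 2 lower at 90 min, 1 higher at 4 h and 1 lower from 90 min to 4 h. After quantile normalization replication-dependent counts were 1 higher and 0 lower at 4 h and 3 higher at 24 h, with 4 variant genes higher at 24 h. With array medians subtracted they were 4 higher and 1 lower at 4 h, 3 higher at 24 h and 3 lower from 4 h to 24 h, with variant counts of 0 higher from 90 min to 4 h and 2 lower from 4 h to 24 h. In the 6 arrays compared alone they were 1 higher and 0 lower at 4 h and 19 higher and 1 lower at 24 h, with variant counts of 2 lower at 90 min, 0 higher at 4 h, 4 higher at 24 h, 0 higher from 90 min to 4 h and 0 lower from 4 h to 24 h. With a plain _at probe set, variant counts were 1 higher at 90 min, 2 lower at 24 h, and 1 higher and 2 lower from 4 h to 24 h, and with probe sets averaged 1 higher at 90 min and 0 lower at 24 h. In the fit over all probe sets, chosen after seeing the data, 1 replication-dependent gene was lower at 4 h, 1 variant gene higher at 24 h and 0 higher from 90 min to 4 h.

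Replicate numbers are shared by the groups, and a pairing was taken as possible where deviations of all 3 same-numbered arrays correlated above 0.1. Vehicle and 90 min met this and the other 5 pairs of groups did not (vehicle and 4 h −0.0807, 0.152 and 0.0558, 90 min and 4 h 0.048, 0.369 and 0.304). Arrays with different numbers were not set beside these values, so a pairing is not shown, and the main fit used no block. With the replicate block 4 replication-dependent genes were lower at 4 h and 0 variant genes higher from 90 min to 4 h, where the H1-10 call was lost, and no other count of histone genes moved by over 1.5 times.

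Leaving out 1 array at a time, replication-dependent genes called higher ranged from 1 to 13 at 4 h (13 without 4 h replicate 3) and from 3 to 19 at 24 h (19 without 4 h replicate 2), and those called lower from 0 to 6 at 90 min, 0 to 8 at 4 h and 1 to 7 at 24 h, highest each time without vehicle replicate 2. Variant genes called higher ranged from 0 to 3 at 4 h, 1 to 5 at 24 h and 0 to 1 from 90 min to 4 h, and those called lower from 1 to 2 at 90 min, 0 to 2 at 4 h, 0 to 1 from 90 min to 4 h and 0 to 1 from 4 h to 24 h. Of the lists of partner genes called lower at 24 h, those of processing, transcription and chaperones moved under treat (10, 6 and 8) and under no other alternative by over 1.5 times.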
